A study of Mus musculus with 4 samples.

Results

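Trp53 and 9 of its target genes (Mdm2, Trp53inp1, Ccng1, Sesn2, Phlda3, Zmat3, Gtse1, Plk2 and Aen) were read in bulk RNA-seq of sorted mouse forebrain cells. They were taken by gene symbol, and each symbol had 1 row, so that 10 of the 54348 rows of the expression table are described. Of the 54348 rows, 12871 passed a filter on low values (a TPM, the length-corrected share of transcripts, of at least 1 in at least 2 of the 4 libraries) and were tested. All 10 genes passed that filter. Sesn2 and Gtse1 passed it through the control libraries alone, so a difference between the groups was built into their being tested.

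All mice carried PdgfraCreER, a tamoxifen-dependent Cre recombinase driven by Pdgfra, and AI14, an allele that makes the red protein tdTomato once Cre has acted. The 2 control libraries had the genotype PdgfraCreER;AI14. The 2 fusion libraries had the genotype PdgfraCreER;MN1:BEND2;AI14, which adds MN1:BEND2, a fusion gene found in astroblastoma, a brain tumour. Pups of both groups received tamoxifen on postnatal days 0 and 1 and were killed on postnatal day 4, and live tdTomato-positive cells were sorted from dissociated forebrain. The expression of the fusion gene and the cells sorted therefore follow where Pdgfra was active around birth. Pdgfra marks oligodendrocyte precursor cells and is also made by some fibroblasts. Forebrains were digested one mouse at a time, per the labels' protocols, but no label ties a library to a mouse. The p-values below thus reflect library-to-library spread, part of which may be technical.

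p53, the protein of Trp53, is a transcription factor that is kept scarce in healthy cells because the ubiquitin ligase Mdm2 marks it for degradation. DNA damage and other stresses free p53 from Mdm2, and it then switches on genes for cell cycle arrest, DNA repair, cell death and metabolic adaptation, Mdm2 among them. Much of this control acts on the protein, which RNA-seq does not measure. In the developing brain, loss of Mdm2 leads to p53-dependent death of neural progenitors.

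p53 binds DNA as a tetramer through copies of a 10-base consensus, called the p53 half-site. To show where such letters lie near the members, the 250 bases before each gene start in RefSeq (GRCm38.p6) were searched on both strands for the half-site consensus with no mismatch. The promoter table held 10 starts for 8 of the 10 members (Trp53inp1 and Zmat3 were not among them). A match was found before a start of 4 members, Trp53, Mdm2, Ccng1 and Aen, whereas 7.13% of all 32851 promoters of the same length held one. The 4 matches are printed below within 30 bases, 5′ to 3′ on the strand of the gene, with the half-site in capitals.
Trp53 (chr11:69580274-69580303, plus strand, match 75 bases before the start): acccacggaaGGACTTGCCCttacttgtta
Mdm2 (chr10:117710925-117710954, minus strand, match 186 bases before the start): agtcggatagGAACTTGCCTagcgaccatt
Ccng1 (chr11:40755452-40755481, minus strand, match 185 bases before the start): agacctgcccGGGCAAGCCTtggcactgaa
Aen (chr7:78895927-78895956, plus strand, match 121 bases before the second of its RefSeq starts): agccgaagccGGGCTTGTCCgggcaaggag
The Aen match lies within an annotated exon of Aen, and the other matches lie in no annotated exon. A match is only a description of letters. The windows before the starts of Sesn2, Phlda3, Gtse1 and Plk2 held none of these letters.

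Gtse1 is a cell cycle gene, and promoters of that class often hold CCAAT boxes and the CHR element TTTGAA. The first of these, searched on both strands, was in 8 of the 10 windows (33.8% of all promoters), which belong to 6 of the 8 members. TTTGAA was in 1 of the 10 windows, of Aen (16% of all promoters). The 250 bases before the first RefSeq start of Gtse1 (chr15:85859457-85859706, plus strand) are printed because they hold a pair of CCAAT boxes, one on each strand, shown in capitals.
Gtse1: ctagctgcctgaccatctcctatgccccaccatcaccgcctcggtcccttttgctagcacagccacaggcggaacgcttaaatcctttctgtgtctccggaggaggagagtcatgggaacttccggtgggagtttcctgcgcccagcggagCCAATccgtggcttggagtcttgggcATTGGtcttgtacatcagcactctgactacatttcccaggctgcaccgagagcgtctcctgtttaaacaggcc

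TPM is a share of the transcripts in a library, and 3 facts about the 4 libraries touch every value that follows. Mitochondrially encoded genes held 10.1% and 7.30% of TPM without the fusion gene, against 48.7% and 26.2% with it. Changes are fusion minus control in mean log2(TPM + 1), and the median over all 12871 tested genes was -1.41, so each change is also given relative to that median and after the libraries were rescaled to a median ratio of 1. After rescaling the median change was -0.22, and lower genes made up 59.5% of calls in place of 91.2%. The Y-linked gene Eif2s3y stood at 121 and 122 TPM without the fusion gene and at 0 in both libraries with it, so sex and genotype cannot be told apart. In bulk samples, fewer cells of a type and less RNA per cell cannot be told apart either.

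Trp53 and 7 of its 9 targets fell in the fusion libraries on deposited TPM, and Trp53 and 4 targets after rescaling. Of the 10 members, 8 were lower, none was higher and 2 did not pass (limma, Benjamini-Hochberg adjusted p under 0.05 over all genes tested). Among all tested genes, 51.3% were lower and 4.95% were higher. None of the 10 members had a positive change. Both fusion libraries lay below both control libraries for all 10 members, and for 71.1% of all tested genes. The median change of the members was -2.37, beside -1.41 for all tested genes, and 9 of the 10 lay below the median gene. Of these, Zmat3, Phlda3 and Ccng1 lay close to it (-0.02, -0.03 and -0.18). The count was 7 with a pseudocount of 0.1 or of 5, and 10 with no filter. With a mean of at least 5 TPM the median of all genes was -1.83, and 4 of the 5 members tested lay below it. After rescaling, 5 members remained lower (Trp53, Sesn2, Gtse1, Plk2 and Aen), none was higher and 5 did not pass. Among all tested genes 19.9% were then lower and 13.6% higher. Sesn2 and Gtse1 count among the 8 and the 5, though a fall was built into their being tested. On deposited TPM, leaving out either control replicate lost every member's call but that of Sesn2. The spread then comes from the fusion libraries alone, where Sesn2 read 0.0387 and 0 TPM and could hardly vary.

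**Figure D1:**
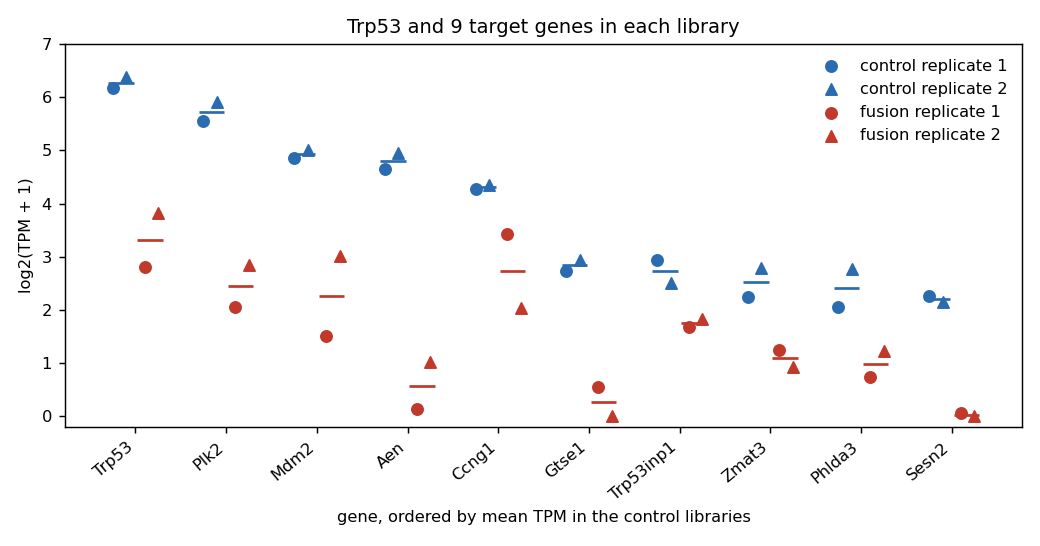
Level of each member in each library as log2(TPM + 1), with genes ordered by mean TPM in the control libraries. Circles and triangles are replicates 1 and 2, blue is control and red is fusion, and short bars are group means. The red symbols lie below both blue symbols for all 10 genes.

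Trp53 itself (ENSMUSG00000059552.13, chromosome 11, 69580359 to 69591873, GRCm38) had the highest mean TPM of the 10 genes in both groups, though Ccng1 was above it in fusion replicate 1. It had 70.8 and 82.1 TPM in control replicates 1 and 2 and 5.98 and 13.1 TPM in fusion replicates 1 and 2. The groups did not overlap, and fusion replicate 1 was the lowest library. The means were 76.4 ± 7.99 and 9.52 ± 5.01 TPM (SD, n = 2), an 8.03-fold lower level. The log2 change was -2.96 ± 0.47 (SE, adjusted p = 0.00638, limma), or -1.56 relative to the median gene. After rescaling it was -1.37 (adjusted p = 0.0362). Its pseudogene Trp53-ps had at most 0.0290 TPM in any library, and no annotated gene overlaps Trp53.

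The profile of Trp53 over the 4 libraries was close to that of many other genes. Its likeness was measured as the root mean square difference of centred log2(TPM + 1) values over the 4 libraries, among 7662 other tested genes with a mean of at least 5 TPM. Among the nearest 5 were Kcnk1 (0.0132), Drg1 (0.0404), Nrf1 (0.0610) and Leprot (0.0624). In all, 229 genes lay within 0.2.

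Mdm2, Ccng1 and Gtse1 act back on p53 or its ligase: Mdm2 degrades p53, cyclin G1 of Ccng1 recruits a phosphatase to Mdm2, and Gtse1 is a microtubule-binding protein that takes p53 out of the nucleus. Mdm2 (ENSMUSG00000020184.15, chromosome 10, 117688875 to 117710758) read 28.0 and 31.0 TPM without the fusion gene, against 1.85 and 7.05 TPM with it. Both fusion libraries were low, and they differed from each other by 3.80-fold. The change was -2.67 ± 0.60 (SE, adjusted p = 0.0160, limma), or -1.26 relative to the median gene. After rescaling it was -1.20 and did not pass (adjusted p = 0.140).

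Ccng1 (ENSMUSG00000020326.7, chromosome 11, 40748552 to 40755311) read 18.4 and 19.4 TPM without the fusion gene, against 9.79 and 3.08 TPM with it. Unlike Trp53 and Mdm2, it was higher in fusion replicate 1 than in fusion replicate 2. Its change of -1.59 ± 0.58 did not pass (SE, adjusted p = 0.0646, limma) and lay at -0.18 relative to the median gene. The change was -2.29 without fusion replicate 1 and -0.88 without fusion replicate 2. A fit with 1 fusion library left cannot measure the spread between the fusion libraries, which differed by 3.18-fold. Ccng1 passed with the replicate number as a block (adjusted p = 0.0392, limma). After rescaling the change was -0.06 and the groups overlapped.

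Gtse1 (ENSMUSG00000022385.11, chromosome 15, 85859745 to 85876573) read 5.64 and 6.66 TPM in the control libraries. It had 0.465 TPM in fusion replicate 1 and was listed at 0 in fusion replicate 2. The change was -2.56 ± 0.38 (SE, adjusted p = 0.00556, limma), or -1.15 relative to the median gene, and -1.61 after rescaling (adjusted p = 0.0477). Gtse1 is made in G2 and M phase, and all 20 genes of a G2 and M phase list were lower too, 11 of them after rescaling. Over all tested genes 51.3% were lower, and 19.9% after rescaling. Cdc25c, Aurka and Kif20a of this list reached 1 TPM in the control libraries alone, so that a fall was built into their being tested. The median change of the 20 genes was -3.26. Cdc20, which activates the anaphase-promoting complex, went from 88.6 and 114 TPM in the control to 1.58 and 3.34 TPM in the fusion libraries. Cdc25c, the phosphatase that activates Cdk1, went from 42.0 and 41.2 to 0.633 and 0.900 TPM. The cyclin gene Ccnb1 went from 305 and 333 to 22.3 and 8.89 TPM, and the kinase gene Aurka from 76.2 and 85.4 to 0.207 and 0 TPM.

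Plk2, a kinase of the polo family linked to centriole duplication and to synaptic scaling in neurons, had one of the deeper falls. Plk2 (ENSMUSG00000021701.8, chromosome 13, 110395046 to 110400844) read 45.9 and 58.8 TPM without the fusion gene, against 3.17 and 6.15 TPM with it. The groups did not overlap, and the mean was 11.2-fold lower. The change was -3.28 ± 0.45 (SE, adjusted p = 0.00480, limma), or -1.87 relative to the median gene and -1.75 after rescaling (adjusted p = 0.0216). Plk2 is also an immediate early gene, induced quickly by growth factors and neuronal activity. Of 16 tested members of an immediate early list, 7 fell, 2 rose and 7 did not pass, with a median of -1.26. Over all tested genes 51.3% were lower and 4.95% were higher. After rescaling 2 of the 16 were higher and none was lower, beside 13.6% and 19.9% of all tested genes. Klf2 and Klf4, factors of the Krüppel family, were those that rose, from 0.0207 and 0.177 to 2.74 and 3.95 TPM and from 0.0603 and 0.190 to 5.22 and 4.34 TPM. Both reached 1 TPM in the fusion libraries alone, so that a rise was built into their being tested. Myc fell from 27.0 and 26.2 to 3.07 and 2.37 TPM, and Nr4a1 and Ier3 fell too, with log2 changes of -3.63 and -3.51. None of these 3 passed after rescaling.

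Aen, Phlda3 and Trp53inp1 serve cell death: Aen is a nuclease that helps to degrade DNA in dying cells, Phlda3 restrains Akt signalling, and Trp53inp1 promotes p53 phosphorylation and autophagy. Aen (ENSMUSG00000030609.18, chromosome 7, 78895854 to 78911209) had the largest log2 change of the 10 genes with a pseudocount of 1 or 0.1, whereas with 5 the changes of Plk2 (-2.58) and Trp53 (-2.53) were as large as that of Aen (-2.52). It read 24.0 and 29.9 TPM without the fusion gene, against 0.0918 and 1.03 TPM with it. The fusion libraries were both near the bottom of the scale, with an 11.2-fold difference between them. The change was -4.22 ± 0.50 (SE, adjusted p = 0.00390, limma), or -2.82 relative to the median gene, and 4.06% of all tested genes had a change as low or lower. After rescaling it was -3.17 (adjusted p = 0.0157).

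Phlda3 (ENSMUSG00000041801.5, chromosome 1, 135766119 to 135769136) read 3.15 and 5.85 TPM without the fusion gene, against 0.660 and 1.34 TPM with it. Its change of -1.44 ± 0.44 (SE, adjusted p = 0.0406, limma) was that of the median gene, from which it lay at -0.03. After rescaling the change was -0.34, did not pass (adjusted p = 0.547) and the groups overlapped, and with a correction for GC content and transcript length it was 0.73, in the other direction. The call was also lost without fusion replicate 1 (adjusted p = 0.105). Trp53inp1 (ENSMUSG00000028211.11, chromosome 4, 11156431 to 11174379) read 6.71 and 4.68 TPM without the fusion gene, against 2.18 and 2.54 TPM with it. It had the smallest change of the 10 genes, -0.98 ± 0.43, and did not pass (SE, adjusted p = 0.102, limma). It was the one member above the median gene, by 0.43, and after rescaling its change was 0.32 (adjusted p = 0.624).

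Sesn2 and Zmat3 act in metabolism and RNA control. Sesn2, a leucine sensor that restrains mTORC1, was near 0 TPM in the fusion libraries. Sesn2 (ENSMUSG00000028893.8, chromosome 4, 132492032 to 132510501) read 3.77 and 3.42 TPM in the control libraries. It had 0.0387 TPM in fusion replicate 1 and was listed at 0 in fusion replicate 2. The change was -2.17 ± 0.27 (SE, adjusted p = 0.00408, limma), or -0.77 relative to the median gene and -1.50 after rescaling (adjusted p = 0.0152). A change on the log2(TPM + 1) scale understates that of a gene at so low a level. The gene model Gm12981, which overlaps Sesn2, shares no exon bases with it and was listed at 0 in every library.

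Sesn2 is induced by the stress factor Atf4 as well as by p53. Of 13 tested genes of the integrated stress response, 9 fell, 1 rose and 3 did not pass, with a median change of -2.70. Over all tested genes 51.3% were lower and 4.95% were higher. After rescaling 7 of the 13 were lower and 1 was higher, beside 19.9% and 13.6% of all tested genes. Atf4 read 36.1 and 42.9 TPM without the fusion gene, against 4.89 and 14.8 TPM with it. Asns, which makes asparagine, fell from 122 and 154 to 4.99 and 4.98 TPM, and Phgdh, the first enzyme of serine synthesis, from 86.5 and 168 to 3.78 and 4.54 TPM. The tRNA synthetase genes Sars and Wars fell with log2 changes of -4.91 and -3.89. Nupr1, a stress-induced chromatin protein, was the member that rose, from 9.24 and 41.0 to 158 and 169 TPM.

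Zmat3 (ENSMUSG00000027663.12, chromosome 3, 32334792 to 32366014), a zinc finger protein that binds RNA and regulates splicing, read 3.74 and 5.89 TPM without the fusion gene, against 1.38 and 0.909 TPM with it. The groups did not overlap. Its change of -1.42 ± 0.41 (SE, adjusted p = 0.0337, limma) lay at -0.02 from the median gene. After rescaling it was -0.25 and did not pass (adjusted p = 0.712), and the call was also lost without fusion replicate 2 (-1.26, adjusted p = 0.0666).

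**Figure D2:**
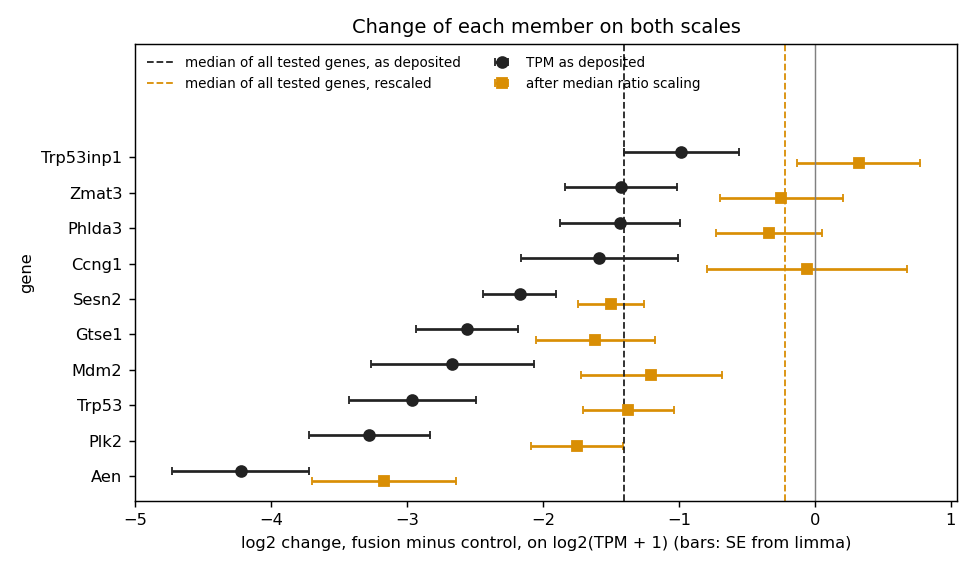
Log2 change of each member, fusion minus control on log2(TPM + 1), as deposited (black circles) and after median ratio scaling (orange squares), with limma standard errors as bars. Dashed lines mark the medians of all tested genes, -1.41 and -0.22. Phlda3, Zmat3 and Ccng1 sit at or near the median line on both scales, and Aen sits furthest from it.

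The changes of the 10 members spread over a wide range. Relative to the median gene they ran from -2.82 for Aen, through -1.87 for Plk2, -1.56 for Trp53, -1.26 for Mdm2, -1.15 for Gtse1 and -0.77 for Sesn2, to between -0.18 and 0.43 for the other 4. The order depends on the pseudocount: Sesn2 changed by -4.97 with a pseudocount of 0.1 and by -0.78 with 5, and Gtse1 by -4.71 and -1.09. Differences between members were not tested.

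**Figure D3:**
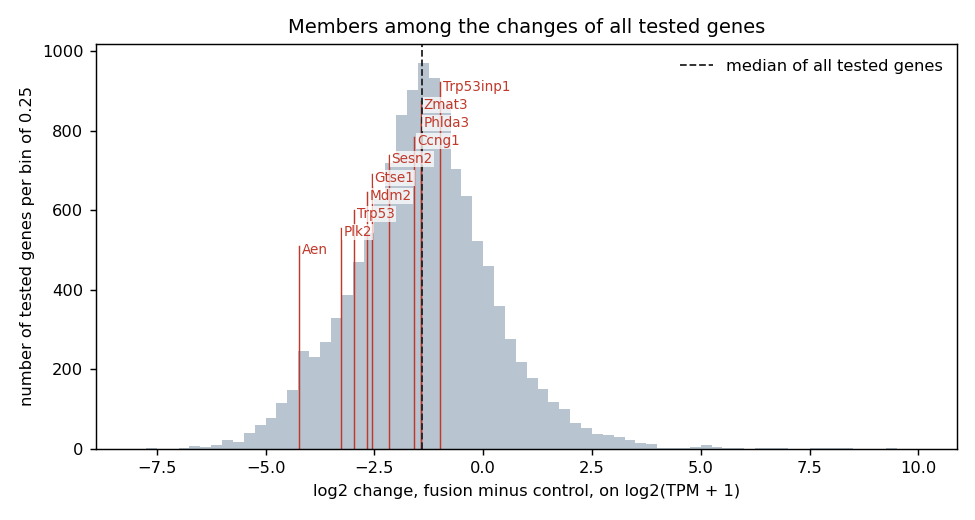
Histogram of the log2 change of all 12871 tested genes (fusion minus control, bins of 0.25), with a red line for each member and a dashed line at the median of -1.41. Trp53inp1 lies to the right of the median line, Phlda3 and Zmat3 lie on it, and Aen lies in the left tail.

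A ratio of 2 genes within a library does not depend on how libraries are scaled, so each target was also set against Trp53. Mdm2 stood at 39.6% and 37.8% of the Trp53 level in the control and at 31.0% and 54.0% in the fusion libraries, so its groups overlapped. Aen stood at 33.9% and 36.5% in the control and at 1.54% and 7.87% in the fusion libraries. Plk2 went from 64.9% and 71.7% to 53.1% and 47.1%. Sesn2 and Gtse1 were also below their control ratios in both fusion libraries, though Gtse1 in fusion replicate 1 (7.77%) was near the control values (7.98% and 8.11%). Trp53inp1 was above, at 36.4% and 19.4% against 9.48% and 5.71%, and so was Phlda3, at 11.0% and 10.3% against 4.45% and 7.13%. Ccng1 and Zmat3 overlapped, with Ccng1 at 164% of Trp53 in fusion replicate 1 and 23.6% in fusion replicate 2. Unequal ratios show unequal change between the members and Trp53, not which of them changed. Only 15.8% of all tested genes had a change as low as that of Trp53 or lower, so most genes fell less or rose. Phlda3, at -0.03 from the median gene, changed as the median gene did. The share of all tested genes whose ratio to Trp53 lay above or below control was not counted.

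Other p53 target genes, 59 on 3 lists, mostly fell or did not pass. Of 45 tested, 29 fell (64.4%), 2 rose and 14 did not pass, with a median change of -1.96, or -0.56 relative to the median gene. Among all tested genes 51.3% were lower and 4.95% were higher. After rescaling 10 of the 45 were lower, 5 were higher and 30 did not pass, beside 19.9% lower and 13.6% higher among all tested genes. Some of them, such as Pcna, Ccnd1 and Ckap2, are cell cycle genes under other control as well. As with Sesn2 and Gtse1, some list genes named here reached 1 TPM in the control libraries alone. A fall was thus built into their being tested. They include Rprm, Psrc1, Bid, Ddb2, Hipk2, Prkdc, Cdc25c, Aurka, Syt1 and Mog. The same holds for Notch1, Polk, Polh, Fdxr, Sco2 and Ulk1. These genes and Rprm, Psrc1, Bid and Ddb2 are among the 29 that fell, so that count rests in part on the filter. How many of all tested genes passed the filter in this way was not counted.

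Among targets for arrest and signalling, 8 of 13 tested fell and none rose. After rescaling 2 were lower (Rprm and Psrc1), 2 were higher (Ppm1d and Btg1) and 9 did not pass. Beside these counts stand 51.3% lower and 4.95% higher among all tested genes, and 19.9% and 13.6% after rescaling. Rprm, Psrc1 and Notch1, among the 8, reached 1 TPM in the control libraries alone. Rprm, a G2 arrest gene, fell from 54.5 and 114 to 0.949 and 0.386 TPM, and Psrc1, for a spindle protein, from 27.2 and 26.8 to 0.365 and 0 TPM. Ckap2 and Dusp14 fell with log2 changes of -2.58 and -2.70, and did not pass after rescaling (adjusted p = 0.157 and 0.159). Cdkn1a, for the cell cycle inhibitor p21 and the best known p53 target, read 5.31 and 5.99 TPM without the fusion gene, against 1.25 and 0.707 TPM with it. Its change was -1.76 (adjusted p = 0.0156, limma), and -0.58 after rescaling (adjusted p = 0.380), and it turned upward with the GC and length correction.

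Among targets for cell death, 7 of 9 tested fell and none rose, and after rescaling 4 were lower, 1 was higher and 4 did not pass. All tested genes had shares of 51.3% lower and 4.95% higher, and 19.9% and 13.6% after rescaling. Bid, lower on both scales, reached 1 TPM in the control libraries alone. Bax, which opens the outer mitochondrial membrane, fell from 352 and 361 to 5.14 and 17.2 TPM, a log2 change of -5.08 (adjusted p = 0.00384, limma) and of -3.48 after rescaling. Triap1, Casp6 and Bid fell with log2 changes of -3.19, -3.16 and -2.96. The death genes Bbc3, Pmaip1, Perp and Pidd1 were below 1 TPM in every library and were not tested. Fas was listed at 0 in 3 libraries and had 4.74 TPM in fusion replicate 2. Apaf1, the core of the apoptosome, read 6.68 and 4.26 TPM without the fusion gene, against 16.4 and 12.4 TPM with it. It did not pass (adjusted p = 0.0579), and was higher after rescaling (adjusted p = 0.0202).

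Among targets for repair and metabolism, 14 of 23 tested fell and 2 rose. After rescaling 4 were lower, 2 were higher and 17 did not pass. For all tested genes the shares were 51.3% lower and 4.95% higher, and 19.9% and 13.6% after rescaling. Ddb2, Polk, Polh, Fdxr, Sco2 and Ulk1, among the 14, reached 1 TPM in the control libraries alone. Ccnd1, Ddb2 and Ephx1 fell with log2 changes of -4.67, -3.34 and -3.03, and Ephx1 did not pass after rescaling (adjusted p = 0.053). Rrm2b, a p53-induced subunit of ribonucleotide reductase, rose from 12.5 and 8.95 to 60.4 and 31.5 TPM (log2 change 1.95, adjusted p = 0.0196, limma). Rps27l rose from 986 and 973 to 4301 and 3662 TPM (log2 change 2.02, adjusted p = 0.00839). Rps27l is a near copy of the ribosomal gene Rps27, which went from 764 and 853 to 3787 and 2971 TPM, and how their common reads were divided is uncertain.

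**Figure D4:**
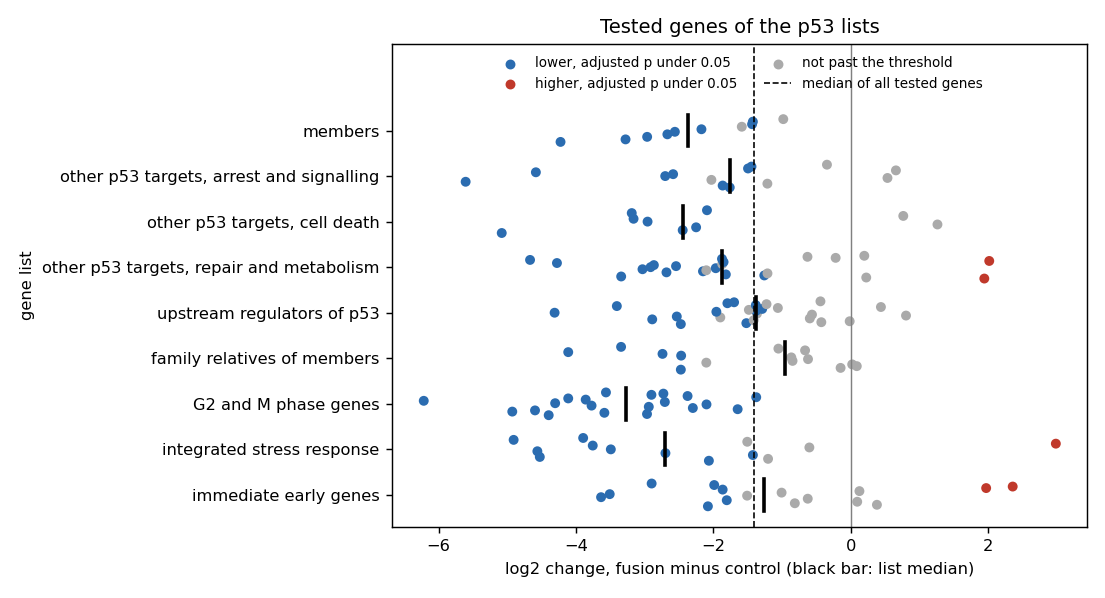
Log2 change of the members and of the tested genes of 8 lists, 1 dot a gene, blue where lower and red where higher at an adjusted p under 0.05 and grey otherwise. Black bars are list medians, the dashed line is the median of all tested genes, and the vertical place of a dot within its row carries no value. The list of G2 and M phase genes lies furthest to the left, with a median of -3.26.

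Regulators that act on p53 had a median change close to that of all genes. Of 25 tested, 12 fell, none rose and 13 did not pass, with a median of -1.38, or 0.03 relative to the median gene. Over all tested genes 51.3% were lower and 4.95% were higher. After rescaling 3 of the 25 were lower and 2, Sirt1 and Rpl23, were higher, beside 19.9% and 13.6% of all tested genes. Hipk2, lower on both scales, and Prkdc, among the 12, reached 1 TPM in the control libraries alone. A fall was thus built into their being tested. Kat5, an acetyltransferase for p53, fell from 22.2 and 34.8 to 0.0300 and 1.05 TPM. The checkpoint kinase gene Chek2 and the p53 kinase gene Hipk2 fell with log2 changes of -2.89 and -2.53, and Chek2 did not pass after rescaling (adjusted p = 0.0671). Cdkn2a, whose product Arf blocks Mdm2, was listed at 0 in every library. Ppm1d, a phosphatase that dampens p53, is itself a target and was counted above with the arrest targets, not among these 25. It read 5.16 and 5.60 TPM without the fusion gene, against 8.28 and 8.22 TPM with it. It did not pass (adjusted p = 0.303), and was higher after rescaling (log2 change 1.97, adjusted p = 0.0266).

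Relatives of the members were set beside them. Of 21 relatives, 14 were tested, of which 5 fell, none rose and 9 did not pass. After rescaling Plk1 was lower, Ccni was higher and the other 12 did not pass. The shares over all tested genes were 51.3% lower and 4.95% higher, and 19.9% and 13.6% after rescaling. Trp63 and Trp73, the other p53 family factors, were at most 0.00907 TPM in any library. Mdm4, the partner of Mdm2, fell from 25.6 and 20.9 to 2.57 and 4.30 TPM (log2 change -2.47, adjusted p = 0.00825, limma), and it did not pass after rescaling (adjusted p = 0.120). Trp53inp2 read 3.67 and 5.75 TPM without the fusion gene, against 3.00 and 5.43 TPM with it.

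Relatives of the cyclin and the sestrin did not pass on deposited TPM. The cyclin genes Ccng2 and Ccni changed by 0.09 and 0.02, and the sestrin genes Sesn1 and Sesn3 by -2.10 and -0.85. Ccni was higher after rescaling, with a log2 change of 1.62 (adjusted p = 0.0490, limma). Whether Sesn2 differed from Sesn1 or Sesn3 in its change was not tested. Phlda1 changed by -0.62 without passing, and Phlda2 was listed at 0 in 3 libraries and had 4.73 TPM in fusion replicate 2. Zmat2 and Zmat5 fell with log2 changes of -2.47 and -2.74 and did not pass after rescaling (adjusted p = 0.224 and 0.101), whereas Zmat1 changed by -0.86 without passing and Zmat4 was not tested.

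Within the polo family, Plk1 fell with a log2 change of -4.11, Plk4 changed by -0.66 without passing, and Plk3 and Plk5 were below 1 TPM in every library. Among the exonucleases related to Aen, Rexo4 fell with a log2 change of -3.34 and did not pass after rescaling (adjusted p = 0.0567), Isg20l2 changed by -1.05 without passing, and Isg20 had 12.3 TPM in fusion replicate 2 and at most 0.0411 TPM elsewhere.

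Marker lists were read for the cell types that the sort could hold. The shares over all tested genes, 51.3% lower and 4.95% higher, and 19.9% and 13.6% after rescaling, stand beside every count. All 6 oligodendrocyte precursor markers were above 7 TPM in every library, with summed levels of 723 and 989 TPM without the fusion gene, against 260 and 380 TPM with it. Of the 6, Cspg4, Sox10, Gpr17 and Pdgfra fell, and after rescaling none passed and Pdgfra changed by 0.37, in the other direction. All 4 mature oligodendrocyte markers fell, among them Mbp, Mag and Mog, the last of which was listed at 0 in both fusion libraries, and 3 of the 4 were lower after rescaling. Microglia and macrophage markers summed to 51.9 and 15.6 TPM without the fusion gene, against 141 and 200 TPM with it. Tyrobp alone held 105 and 116 TPM of the fusion sums. Of 5 tested, 2 rose, Tyrobp and Aif1, on both scales. C1qa, C1qb and Csf1r did not pass, and C1qa went the other way, from 6.53 and 2.15 to 1.08 and 0.851 TPM. Cx3cr1 was at 0 and 0.112 TPM in the fusion libraries. Fibroblast markers summed to 47.8 and 124 TPM without the fusion gene, against 116 and 242 TPM with it, and Col1a1 was the 1 of 5 tested that rose. After rescaling 4 of the 5 were higher, Col1a1, Col1a2, Col3a1 and Dcn, and none was lower. Astrocyte markers summed to 215 and 260 against 22.3 and 49.1 TPM, with 3 of 4 tested lower, and 1, Aldoc, after rescaling. Neuron markers summed to 159 and 157 against 25.8 and 10.7 TPM, with 3 of 3 tested lower, and 2 after rescaling. Syt1, lower on both scales, reached 1 TPM in the control libraries alone, so that a fall was built into its being tested. Of the endothelial markers only Cdh5 was tested, through the fusion libraries alone (0.252 and 0.152 against 1.11 and 1.13 TPM), and they summed to at most 2.28 TPM and ependymal markers to at most 0.924 TPM in any library. The part of cell makeup and of the mitochondrial share in the members' changes was not tested.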

How the data were processed

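Full-length cDNA of sorted cells was sequenced from both ends, 100 bp each, per the labels' protocols. The authors deposited 1 table of TPM for 2 control and 2 fusion libraries. Per the submitters' processing notes, Trimmomatic 0.39 and Salmon 1.8.0 were used with GRCm38 (mm10). The sources used here do not name an annotation release. TPM keeps no depth, so the read depth of each library is unknown and no counting interval is given. Each of the 4 columns was matched to its sample by group and replicate number.

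Genes reaching 1 TPM in 2 or more libraries were tested on log2(TPM + 1) with limma 3.58.1 in R 4.3.3, by a 2-sided moderated test whose prior variance followed the mean level. Adjustment was by Benjamini-Hochberg over 12871 genes, with a threshold of 0.05. The fit was tested on simulated data. Positions and exons came from GENCODE M21 (GRCm38), promoters from RefSeq (GRCm38.p6).

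The members, gene lists and tests were chosen with earlier results of these data known. All members and family relatives are named, and from each list the passed genes with the largest change, up to 4, or, where none passed, the 3 of highest mean. A few genes that this rule names are not reported here. Other list genes, Eif2s3y and Rps27 were named after their values were seen. Alternatives were other pseudocounts, filters, scalings and priors, a replicate block and each library left out. A loess correction for GC content and length (span 0.3) was added after seeing the data.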

Additional observations from a re-analysis of the deposited data

How the results depend on the processing

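The count of 8 lower members was 5 with no filter, 4 of 5 tested with a mean of at least 5 TPM, 5 after median ratio scaling, 2 with quantile normalization (Plk2 and Aen) and 3 with the GC and length correction (Sesn2, Plk2 and Aen). It ranged from 1 to 8 with a library left out, where the lone library of a group is assumed to vary as the other group did. It was 6 to 9 with the other settings, and no member was higher under any of the 15. The signs of 7 members, Trp53, Mdm2, Sesn2, Zmat3, Gtse1, Plk2 and Aen, held under every setting that tested them. Trp53 ranged from -3.47 to -1.16, Aen from -5.85 to -2.40, Sesn2 from -4.97 to -0.78 and Gtse1 from -4.71 to -1.09, the last 2 at pseudocounts of 0.1 and 5. Trp53inp1 turned to 0.32 after median ratio scaling and 0.45 with quantile normalization, Ccng1 to 0.0712 with quantile normalization and Phlda3 to 0.73 with the GC and length correction. The cause was not tested. With the replicate number as a block 9 members were lower, Ccng1 among them. Same-numbered libraries did not deviate together (correlation across genes -0.0398). That value rests on 1 difference between libraries in each group, so whether same-numbered libraries shared more than a number cannot be told. Over all genes, 637 higher and 6606 lower calls became 1746 and 2563 after median ratio scaling, 1948 and 1955 with quantile normalization, 1702 and 2091 with the GC and length correction, 15 and 1105 without control replicate 1 and 14 and 1025 without control replicate 2. With 2 libraries a group and unknown depth, values below 1 TPM are imprecise.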
